A study of Mus musculus and Rattus norvegicus with 12 samples.

Results

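The lysosome genes described here were 37 genes for acid hydrolases, their activators and sorting receptor, membrane proteins of the lysosome, subunits of its proton pump and the regulator Tfeb. They were chosen by symbol, as known parts of the lysosome, and all 37 were found among the 24411 gene symbols of the mouse count tables. Of these, 36 were also found among the 17315 symbols of the rat tables, and Naglu was not analysed in rat. By role they comprised 10 cathepsins and other proteases, 10 glycosidases, 5 lipid hydrolases and activators, 5 membrane proteins, 5 proton pump genes and a regulator and a sorting receptor (2 genes).

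Messenger RNA levels came from strand-specific, ribosomal RNA-depleted RNA-seq of 12 blastocyst-derived cell lines, each an independently derived line collected after 2 days of culture. The 3 mouse pXEN lines were pXEN2 (male), pXEN4 (female) and pXEN6 (female), kept in the condition also used for the rat lines. The 3 mouse XEN lines, extraembryonic endoderm stem cells of the primitive endoderm lineage, were XEN1 (female), XEN2 (male) and XEN5 (male), grown in serum on mouse embryo fibroblast feeders. The 2 mouse embryonic stem (ES) lines, which are pluripotent, were ES2 (male) and ES3 (female), grown in serum with LIF and 2i. All 8 mouse lines were of the ICR strain. The 4 rat XENP lines were CX1 (male) and MAX8 (female) from WKY rats, and MAX2 (female) and MAX3 (male) from F344 rats. The labels name no genetic change in any line. Cell type and culture condition changed together in each mouse comparison and cannot be told apart.

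Lysosomes are acidified compartments that degrade proteins, glycans and lipids delivered by endocytosis and autophagy. Their soluble hydrolases are mostly carried from the Golgi by mannose 6-phosphate receptors, a vacuolar proton pump keeps the lumen acidic, and transcription factors of the TFEB family bind E-box type motifs in the promoters of many lysosome genes. Visceral endoderm of the rodent yolk sac, a derivative of the primitive endoderm, is known for high endocytic and lysosomal activity, which supplies the embryo with amino acids from degraded protein.

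The mouse libraries held 2661691 to 3483069 gene counts and the rat libraries 1047535 to 1242937. Between 20.7% and 50.1% of the mouse counts fell on Rn45s, a ribosomal RNA precursor. Levels are given as CPM, counts scaled to a common TMM-adjusted library size. Summed over 9 endoderm markers they were 5598 to 5945 CPM in pXEN, 4436 to 6525 CPM in XEN and 47.7 to 57.3 CPM in ES lines. Summed over 8 pluripotency markers they were 83.5 to 143 CPM in pXEN, 33.1 to 50.7 CPM in XEN and 4063 to 4098 CPM in ES lines, so both sets of markers followed the labels. Over 17 fibroblast markers the sums were 9.21 to 15.4 CPM in pXEN, 270 to 356 CPM in XEN and 22.6 to 32.5 CPM in ES lines. Over 10 macrophage markers they were 5.59 to 6.03 CPM in pXEN, 2.64 to 7.40 CPM in XEN and 1.64 to 1.95 CPM in ES lines. Adgre1, Aif1 and Tyrobp had 0 counts in all 8, whereas Fcer1g averaged 3.94 CPM in pXEN lines, of a mean sum of 5.87 CPM. Fcer1g had 0 counts in ES lines and was called higher in pXEN than in XEN or ES lines. It was tested only because of its level in pXEN lines, so these calls are no support for a difference. In bulk RNA, more of a cell type and more RNA per cell cannot be told apart.

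Summed over the lysosome genes, levels were higher in both kinds of endoderm line than in ES cells. The 37 genes summed to 6314 to 8559 CPM in pXEN lines, 5538 to 7123 CPM in XEN lines and 2258 to 2527 CPM in ES lines, with no overlap between either endoderm group and ES. Each gene was tested with the quasi-likelihood test of edgeR, and p-values were adjusted over 10895 genes by the Benjamini-Hochberg method (the edgeR adjusted p below), with a threshold of 0.05. Of the 37, 36 passed the filter on low counts. Ctsz, Idua, Naglu and Ctsh passed it without an ES line above the minimum of 3.14 CPM, so they were tested only because of their level in endoderm lines. The calls of Ctsz and Naglu against ES are therefore no support for a difference, and the counts of rising genes below include both. The remaining gene, Ctss, a cathepsin of antigen-presenting cells, had 0 counts in all 12 lines, which allows up to 0.120 CPM over the mouse lines and 0.668 CPM over the rat lines (counting error only).

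In pXEN against ES, 21 of the 37 genes rose, 1 fell and 14 of those tested did not pass, where 18.2% of all tested genes rose and 17.8% fell. Their median log2 fold change was 1.43, beside -0.03 over all genes. In XEN against ES, 19 rose, 2 fell and 15 did not pass, where 20.7% of all genes rose and 17.8% fell, with a median of 1.17 beside 0.00 over all genes. These comparisons share the same 2 ES lines. Of the fibroblast markers, 12 of 17 also rose in XEN against ES, and their part in the XEN results was not tested. Among them Col1a2, Col3a1, Dcn, Lum and Prrx1 passed the filter only through the XEN lines, so those calls are no support for a difference. In pXEN none of the markers rose, 10 of the 17 had 0 counts and their sum was below that in ES. In pXEN against XEN, 1 gene rose, none fell and 35 did not pass, where 0.918% of all genes rose and 3.63% fell. The median there was 0.13, beside 0.00 over all genes. At an unadjusted p under 0.05, edgeR gave 3 genes higher in pXEN than XEN (Gusb, Psap and Ctsd) and 0 lower, and DESeq2 with adjustment gave 1 and 0. The share of all tested genes at the unadjusted threshold is not given here, so no excess can be read from that count. The number that rose in pXEN over ES was 16 without ES2 and 15 without ES3, and that in XEN over ES was 13 and 15, where the remaining ES line was assumed to vary like the other groups. In those refits the share of all tested genes that rose was lower as well, at 10.2% and 12.0% in pXEN and 11.2% and 12.9% in XEN.

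**Figure D1:**
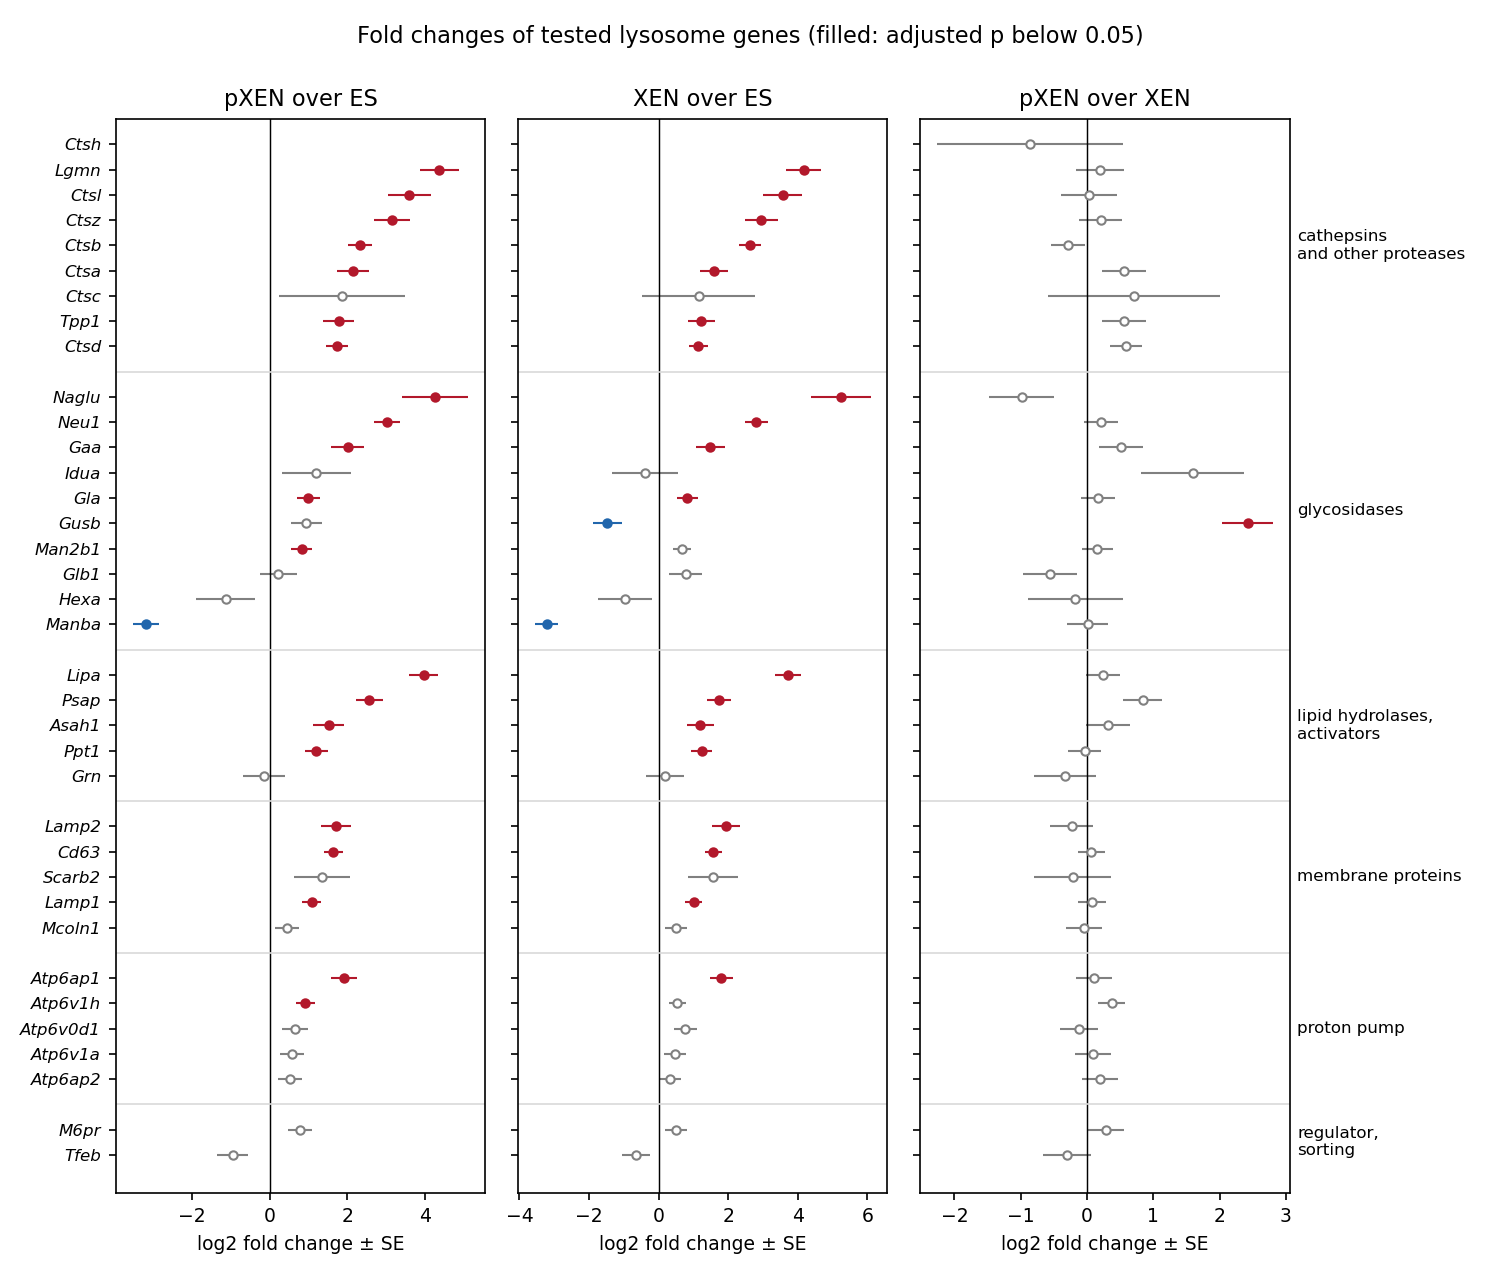
Log2 fold change with its standard error (x axis) of each tested lysosome gene (rows, grouped by role) in pXEN over ES (3 against 2 lines), XEN over ES (3 against 2) and pXEN over XEN (3 against 3), with filled points where the edgeR adjusted p was below 0.05. The x axes differ between panels, and Ctsh is left out of the panels against ES because ES lines held 3 counts of it in all. Manba stands to the left of 0 in both comparisons with ES, at -3.20 and -3.22, and Gusb is the filled point in the pXEN over XEN panel, at 2.43.

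The promoters of several of these genes carry the E-box CACGTG that TFEB family proteins bind. RefSeq windows of 250 bases before a start site (GRCm38.p6) were held for 32 of the 37 genes, and 11 (34.4%) contained CACGTG, against 6.86% of 27025 genes with a window. The motif reads the same on both strands, and the longer forms below contain it. TCACGTG, on either strand, was in 10 of the 32 (31.2%, against 3.58%), and TCACGTGA in 5 (15.6%, against 0.907%). The windows with CACGTG were those of Atp6v1a, Ctsa, Ctsd, Ctsl, Gaa, Gla, Glb1, Lamp1, Lgmn, Mcoln1 and Naglu. The 32 genes had 37 windows, and a gene counted where any of its windows held the motif. Ctsa and Lgmn each also had a window, at another start site, without it. Of these 11 genes, 8 rose against ES in pXEN and 8 in XEN, with Atp6v1a, Glb1 and Mcoln1 not passing in either. Of the 20 tested genes whose windows lacked it, 10 rose and 1 fell in pXEN, and 9 rose and 2 fell in XEN. Over all tested genes, 18.2% rose in pXEN and 20.7% in XEN, and 17.8% fell in each. A match is a description of the letters and not a measured binding site.

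The sequences below show the window with the most E-boxes (Lamp1), a protease with a pair of them (Ctsd), the gene with the highest fold in XEN over ES among those that passed the test (Naglu) and the gene that fell most (Manba). Each runs 5′ to 3′ on the gene's strand and ends at the base before the RefSeq start, with CACGTG in capitals. The windows are chr8:13158911-13159160 (plus strand) for Lamp1, chr7:142387828-142388077 (minus) for Ctsd, chr11:101069844-101070093 (plus) for Naglu and chr3:135485361-135485610 (plus) for Manba.
Lamp1: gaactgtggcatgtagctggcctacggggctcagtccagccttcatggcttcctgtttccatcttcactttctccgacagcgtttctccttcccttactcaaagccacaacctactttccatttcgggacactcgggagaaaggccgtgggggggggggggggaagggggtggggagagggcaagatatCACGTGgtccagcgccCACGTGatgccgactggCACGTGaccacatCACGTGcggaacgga
Ctsd: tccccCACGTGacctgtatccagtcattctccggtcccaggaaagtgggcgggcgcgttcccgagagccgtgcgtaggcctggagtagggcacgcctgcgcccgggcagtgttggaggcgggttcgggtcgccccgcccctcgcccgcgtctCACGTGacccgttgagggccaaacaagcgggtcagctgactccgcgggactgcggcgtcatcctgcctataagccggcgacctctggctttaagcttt
Naglu: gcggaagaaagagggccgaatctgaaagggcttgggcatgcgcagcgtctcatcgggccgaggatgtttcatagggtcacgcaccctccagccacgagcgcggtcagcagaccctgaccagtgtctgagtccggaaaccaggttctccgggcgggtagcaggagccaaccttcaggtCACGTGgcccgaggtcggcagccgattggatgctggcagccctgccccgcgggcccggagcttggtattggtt
Manba: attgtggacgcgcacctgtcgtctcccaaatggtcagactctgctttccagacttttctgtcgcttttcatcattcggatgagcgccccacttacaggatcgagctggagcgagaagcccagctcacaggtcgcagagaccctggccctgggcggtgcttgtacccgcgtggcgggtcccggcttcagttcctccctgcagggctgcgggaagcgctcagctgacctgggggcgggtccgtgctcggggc
Lamp1 held 4 E-boxes, whose first bases lay 61, 45, 28 and 15 bases before the start. Ctsd held 2, at 245 and 98 bases, Naglu held 1, at 73 bases, and the Manba window held none.

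Among the proteases, 7 of 10 rose in pXEN and 7 in XEN against ES, and none fell. That is 70% in each, Ctsz included, beside 18.2% of all tested genes in pXEN and 20.7% in XEN. The median log2 fold change of the 9 tested was 2.33 in pXEN and 2.62 in XEN. Lgmn, the asparaginyl endopeptidase legumain that processes cathepsins (chromosome 12, 102394084 to 102439813, minus strand, GRCm38), stood at 716, 305 and 597 CPM in pXEN2, pXEN4 and pXEN6. It was at 327, 721 and 359.6 CPM in XEN1, XEN2 and XEN5, and at 24.3 and 27.7 CPM in ES2 and ES3. Every endoderm line lay far above both ES lines. Lgmn was 20.7-fold higher in pXEN than ES (log2 4.37 ± 0.51 SE, edgeR adjusted p = 0.000159) and 18.0-fold higher in XEN than ES (log2 4.17 ± 0.50, edgeR adjusted p = 0.000215). Ctsl, the cysteine endopeptidase cathepsin L, had 569.6, 981 and 312 CPM in pXEN2, pXEN4 and pXEN6, and 857, 430.4 and 536 CPM in XEN1, XEN2 and XEN5. In ES2 and ES3 it had 65.0 and 37.4 CPM. The endoderm lines spread widely and none reached down to the ES lines. Ctsl was 12.1-fold higher in pXEN (log2 3.60 ± 0.56, edgeR adjusted p = 0.00121) and 11.9-fold higher in XEN (log2 3.57 ± 0.56, edgeR adjusted p = 0.00132) than in ES. The cathepsin L paralogs of rodent placenta, Cts3, Cts6, Cts7, Cts8, Ctsm, Ctsq and Ctsr, had 0 counts in all 8 mouse lines, and Ctsj had 1 count, in ES3.

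Ctsz, the carboxypeptidase cathepsin Z, had 16.8, 25.1 and 18.1 CPM in pXEN2, pXEN4 and pXEN6. It had 24.9, 14.5 and 12.9 CPM in XEN1, XEN2 and XEN5, and 2.47 and 1.95 CPM in ES2 and ES3. All 6 endoderm lines lay above both ES lines, and the folds over ES were 8.93 in pXEN (edgeR adjusted p = 0.000475) and 7.73 in XEN (edgeR adjusted p = 0.000774). Ctsz passed the filter only through the endoderm lines, so these calls are no support for a difference. Ctsb, cathepsin B, had 360.0, 356 and 294 CPM in pXEN2, pXEN4 and pXEN6, 557, 278 and 399 CPM in XEN1, XEN2 and XEN5, and 56.3 and 77.6 CPM in ES2 and ES3. The 3 pXEN lines were close together, XEN1 was the highest of the 8 lines, and both ES lines were far below. Ctsb was 5.03-fold higher in pXEN (edgeR adjusted p = 0.000247) and 6.14-fold higher in XEN (edgeR adjusted p = 0.000144) than in ES. Ctsa, the protective protein that stabilises neuraminidase and beta-galactosidase, had 183, 423 and 219 CPM in pXEN2, pXEN4 and pXEN6, 259, 150.4 and 151 CPM in XEN1, XEN2 and XEN5, and 69.9 and 54.6 CPM in ES2 and ES3. One line of each endoderm group, pXEN4 and XEN1, stood above the others. Its folds over ES were 4.41 in pXEN (edgeR adjusted p = 0.0023) and 3.00 in XEN (edgeR adjusted p = 0.0102), and the XEN call was lost without ES3 (edgeR adjusted p = 0.0932).

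Ctsd, the aspartic protease cathepsin D, averaged 801 ± 205 CPM in pXEN (SD, n = 3), 531 ± 138 CPM in XEN (n = 3) and 239.8 ± 28.0 CPM in ES lines (n = 2). It rose 3.34-fold in pXEN (edgeR adjusted p = 0.000892) and 2.21-fold in XEN (edgeR adjusted p = 0.00838), the XEN call being lost without ES2 (edgeR adjusted p = 0.0763). Tpp1, tripeptidyl peptidase, averaged 235 ± 55.5 CPM in pXEN, 159.7 ± 71.7 CPM in XEN and 68.3 ± 12.2 CPM in ES lines. It rose 3.44-fold in pXEN (edgeR adjusted p = 0.0056) and 2.34-fold in XEN (edgeR adjusted p = 0.0305). The pXEN call was lost without ES3 (edgeR adjusted p = 0.0616), and the XEN call was lost without XEN1, XEN5, ES2 or ES3 (highest edgeR adjusted p = 0.178).

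Ctsh and Ctsc did not pass, and both varied widely between lines of one group. Ctsh, the aminopeptidase cathepsin H, had 87.5, 334 and 0 CPM in pXEN2, pXEN4 and pXEN6, and 353, 244 and 169 CPM in XEN1, XEN2 and XEN5. ES2 and ES3 held 3 counts of it in all, at 0.822 and 0.390 CPM, so no fold is given. A single pXEN line, pXEN6, lacked a transcript that stood at 87.5 CPM or more in the other 5 endoderm lines; its 0 counts allow up to 0.861 CPM there. The edgeR adjusted p against ES was 0.0773 in pXEN and 0.0544 in XEN. Without pXEN6, the line with 0 counts, the edgeR adjusted p was 0.000606 in pXEN and 0.000412 in XEN. Ctsh passed the filter only through the endoderm lines, so these values are no support for a difference. Ctsc, the dipeptidyl peptidase that activates serine proteases of immune cells, had 14.1, 74.0 and 6.60 CPM in pXEN2, pXEN4 and pXEN6. It had 0.390, 45.0 and 11.6 CPM in XEN1, XEN2 and XEN5, and 14.0 and 3.51 CPM in ES2 and ES3. Its groups overlapped throughout, with an edgeR adjusted p of 0.415 in pXEN and 0.609 in XEN against ES. pXEN4 was the high pXEN line for both genes, whereas XEN1 was the highest XEN line for Ctsh and the lowest for Ctsc.

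**Figure D2:**
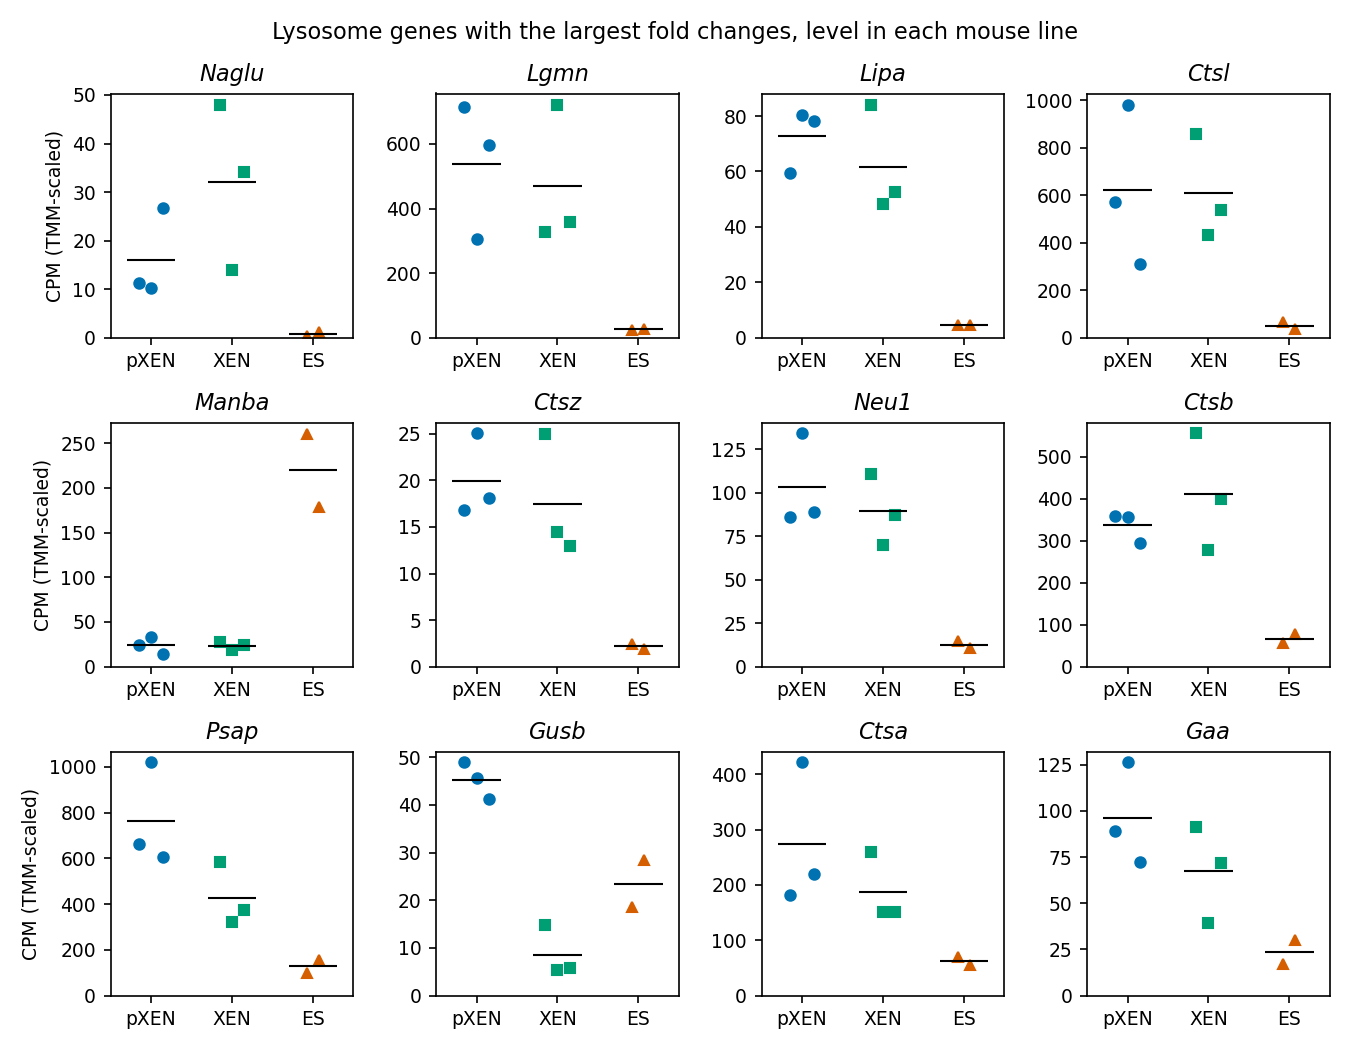
Level in each mouse line (points, CPM on a linear axis from 0; 3 pXEN, 3 XEN and 2 ES lines per panel, horizontal bar at the group mean) of the 12 lysosome genes that passed the test with the largest fold changes. In 11 panels the pXEN points lie above both ES points, and in the Manba panel they lie below, at 14.3 to 33.0 CPM against 179 and 261 CPM. In the Gusb panel the 3 XEN points, at 5.28 to 14.8 CPM, lie below the points of both other groups.

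The glycosidases were the class with members moving both ways. Of the 10, 5 rose and 1 fell in pXEN against ES, and 4 rose and 2 fell in XEN against ES, with medians of 0.97 and 0.73. The share that rose, Naglu included, was 50% in pXEN and 40% in XEN, beside 18.2% and 20.7% of all tested genes. The share that fell was 10% in pXEN and 20% in XEN, beside 17.8% of all tested genes in each. Naglu, the N-acetylglucosaminidase of heparan sulfate breakdown (chromosome 11, 101070012 to 101077672, plus strand, GRCm38), had 11.2, 10.2 and 26.7 CPM in pXEN2, pXEN4 and pXEN6, 47.9, 13.9 and 34.1 CPM in XEN1, XEN2 and XEN5, and 0.411 and 1.17 CPM in ES2 and ES3. ES lines were near 0.600 CPM, the level that 3 counts over both of them give. Naglu passed the filter only through the endoderm lines, so its calls are no support for a difference. Naglu rose 19.2-fold in pXEN (log2 4.26 ± 0.86, edgeR adjusted p = 0.00346) and 38.0-fold in XEN (log2 5.25 ± 0.85, edgeR adjusted p = 0.00105). The size depended on single lines: the pXEN fold was 12.8 without pXEN6 and 35.9 without ES3, and the XEN fold was 70.7 without ES3. Neu1, the sialidase that works in a complex with Ctsa, had 86.2, 134 and 89.0 CPM in pXEN2, pXEN4 and pXEN6, 111, 70.1 and 87.2 CPM in XEN1, XEN2 and XEN5, and 14.8 and 10.5 CPM in ES2 and ES3. The endoderm lines formed one range far above the ES lines, and Neu1 rose 8.13-fold in pXEN (edgeR adjusted p = 7.07e-05) and 7.03-fold in XEN (edgeR adjusted p = 0.000126). Gaa, the acid alpha-glucosidase that degrades glycogen, had 89.2, 127 and 72.6 CPM in pXEN2, pXEN4 and pXEN6, 91.2, 39.2 and 71.9 CPM in XEN1, XEN2 and XEN5, and 17.3 and 30.4 CPM in ES2 and ES3. XEN2 lay nearest to ES. The folds were 4.02 in pXEN (edgeR adjusted p = 0.00361) and 2.81 in XEN (edgeR adjusted p = 0.0153), and the XEN call was lost without ES2 (edgeR adjusted p = 0.133).

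Manba, the beta-mannosidase that cleaves the last linkage of N-glycan breakdown (chromosome 3, 135485611 to 135571404, plus strand, GRCm38), ran the other way. It had 24.0, 33.0 and 14.3 CPM in pXEN2, pXEN4 and pXEN6, 28.1, 18.6 and 24.3 CPM in XEN1, XEN2 and XEN5, and 261 and 179 CPM in ES2 and ES3. Every endoderm line was below both ES lines, and the endoderm groups had nearly the same mean. Manba was 9.22-fold lower in pXEN (log2 -3.20 ± 0.34, edgeR adjusted p = 4.51e-05) and 9.31-fold lower in XEN (log2 -3.22 ± 0.34, edgeR adjusted p = 5.10e-05) than in ES. Per kilobase of exon its rank among the 37 genes was 32 in pXEN and 30 in XEN lines, against 5 in ES lines. Man2b1, the lysosomal alpha-mannosidase of the same pathway, averaged 59.1 ± 7.10 CPM in pXEN, 53.2 ± 11.4 CPM in XEN and 33.3 ± 5.81 CPM in ES lines. It rose 1.77-fold in pXEN (edgeR adjusted p = 0.0332) and missed the threshold in XEN (1.59-fold, edgeR adjusted p = 0.0697). The pXEN call was lost without pXEN2, pXEN6, ES2 or ES3 (highest edgeR adjusted p = 0.210) and under upper-quartile scaling (edgeR adjusted p = 0.0569).

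Gusb, beta-glucuronidase (chromosome 5, 129989011 to 130003049, minus strand, GRCm38), was the only one of the 36 tested genes that passed the test between pXEN and XEN lines. It had 49.0, 45.6 and 41.3 CPM in pXEN2, pXEN4 and pXEN6, against 14.8, 5.28 and 5.81 CPM in XEN1, XEN2 and XEN5, with 18.5 and 28.5 CPM in ES2 and ES3. The pXEN lines were the most alike and the highest, ES lines lay between, and XEN lines were lowest. Gusb was 5.37-fold higher in pXEN than XEN (log2 2.43 ± 0.38, edgeR adjusted p = 0.00468), and this call held in each of the 16 alternative fits. It was 2.79-fold lower in XEN than ES (log2 -1.48 ± 0.42, edgeR adjusted p = 0.0163). That call was lost without XEN5 or ES3 (highest edgeR adjusted p = 0.136), and the fold was 4.21 without XEN1. In pXEN against ES it was 1.93-fold higher and missed the threshold (log2 0.95 ± 0.41, edgeR adjusted p = 0.0915). XEN lines, the group with fibroblast markers at 270 to 356 CPM, had the lowest Gusb; the part of feeder RNA in this was not tested.

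Gla, the X-linked alpha-galactosidase, averaged 46.8 ± 15.1 CPM in pXEN, 41.6 ± 1.95 CPM in XEN and 23.4 ± 1.09 CPM in ES lines. It rose 2.00-fold in pXEN (edgeR adjusted p = 0.0235) and 1.78-fold in XEN (edgeR adjusted p = 0.0490). Both calls were close to the threshold. The pXEN call was lost without pXEN6, ES2 or ES3 (highest edgeR adjusted p = 0.125), and the XEN call was lost in 6 of 8 refits with a line left out and in 4 other settings (highest edgeR adjusted p = 0.195). Hexa, the alpha subunit of beta-hexosaminidase, had 2.96, 10.5 and 0.574 CPM in pXEN lines, 5.02 to 5.56 CPM in XEN lines and 13.2 and 7.79 CPM in ES2 and ES3, and did not pass against ES in either group (edgeR adjusted p = 0.275 in pXEN and 0.346 in XEN). Glb1, beta-galactosidase, averaged 19.5 ± 3.53 CPM in pXEN, 29.0 ± 15.8 CPM in XEN and 16.8 ± 7.71 CPM in ES lines. Idua, the iduronidase of heparan and dermatan sulfate breakdown, stood at 3.42 to 4.61 CPM in pXEN, 0 to 2.73 CPM in XEN and 1.64 to 1.95 CPM in ES lines. Neither passed in any comparison. Between the endoderm groups the fitted fold of Idua was 3.02 for pXEN over XEN, all 3 pXEN lines lying above the XEN lines, with an edgeR adjusted p of 0.374.

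Of the lipid hydrolases and activators, 4 of 5 rose in pXEN and 4 in XEN against ES, with medians of 1.52 and 1.24. That is 80% in each, beside 18.2% of all tested genes in pXEN and 20.7% in XEN. Lipa, the acid lipase that releases cholesterol and fatty acids from lipoprotein lipids (chromosome 19, 34492318 to 34527474, minus strand, GRCm38), had 59.6, 80.3 and 78.3 CPM in pXEN2, pXEN4 and pXEN6. It had 84.2, 48.4 and 52.6 CPM in XEN1, XEN2 and XEN5, and 4.52 and 4.68 CPM in ES2 and ES3. The ES lines were almost equal, and every endoderm line stood at 48.4 CPM or more. Lipa rose 15.7-fold in pXEN (log2 3.97 ± 0.37, edgeR adjusted p = 2.11e-05) and 13.3-fold in XEN (log2 3.73 ± 0.37, edgeR adjusted p = 3.47e-05). Psap, the precursor of the saposins that present sphingolipids to their hydrolases (chromosome 10, 60277627 to 60302597, plus strand, GRCm38), had 663, 1022 and 608 CPM in pXEN2, pXEN4 and pXEN6. It had 586, 322 and 374 CPM in XEN1, XEN2 and XEN5, and 98.7 and 158 CPM in ES2 and ES3. The 3 groups did not overlap. Psap rose 5.96-fold in pXEN (log2 2.57 ± 0.36, edgeR adjusted p = 0.000353) and 3.33-fold in XEN (log2 1.73 ± 0.35, edgeR adjusted p = 0.00299). It did not pass between pXEN and XEN (1.79-fold, log2 0.84 ± 0.29, edgeR adjusted p = 0.168).

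Asah1, acid ceramidase, averaged 144 ± 26.9 CPM in pXEN, 115 ± 51.7 CPM in XEN and 50.3 ± 7.72 CPM in ES lines. It rose 2.86-fold in pXEN (edgeR adjusted p = 0.012) and 2.29-fold in XEN (edgeR adjusted p = 0.033). XEN2, at 55.6 CPM, lay within the ES range. The pXEN call was lost without ES2 or ES3 (highest edgeR adjusted p = 0.0991), and the XEN call was lost without XEN1, XEN5, ES2 or ES3 (highest edgeR adjusted p = 0.186). Ppt1, the thioesterase that removes palmitate from proteins, averaged 34.6 ± 4.62 CPM in pXEN, 35.5 ± 6.02 CPM in XEN and 15.1 ± 3.68 CPM in ES lines. It rose 2.30-fold in pXEN (edgeR adjusted p = 0.00853) and 2.36-fold in XEN (edgeR adjusted p = 0.00738), and both calls were lost without ES3 (edgeR adjusted p = 0.0869 in pXEN and 0.0784 in XEN). Grn, the precursor of the granulins, stayed between 3.89 and 11.7 CPM in all 8 lines and passed in no comparison. Its fitted change against ES was log2 -0.14 in pXEN and 0.18 in XEN.

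Among the membrane proteins, 3 of 5 rose against ES in pXEN and 3 in XEN, with medians of 1.34 and 1.56. That is 60% in each, beside 18.2% of all tested genes in pXEN and 20.7% in XEN. Lamp1, a heavily glycosylated protein of the lysosome's limiting membrane (chromosome 8, 13159161 to 13175338, plus strand, GRCm38), was the lysosome gene with the highest level per kilobase of exon in all 3 mouse groups. It averaged 442 CPM per kilobase in pXEN, 419.8 in XEN and 209 in ES lines, and Ctsd came second in each. Per line, Lamp1 had 999.6, 1409.9 and 1137 CPM in pXEN2, pXEN4 and pXEN6, 1114, 915 and 1339.8 CPM in XEN1, XEN2 and XEN5, and 489 and 628 CPM in ES2 and ES3. It was high in every line and higher in each endoderm line than in either ES line. Lamp1 rose 2.12-fold in pXEN (edgeR adjusted p = 0.00483) and 2.01-fold in XEN (edgeR adjusted p = 0.00709), calls that were both lost without ES2 (edgeR adjusted p = 0.0599 in pXEN and 0.0792 in XEN). Lamp2, the X-linked relative of Lamp1 that takes part in autophagy, averaged 146 ± 48.1 CPM in pXEN, 172 ± 42.2 CPM in XEN and 44.6 ± 21.8 CPM in ES lines. It rose 3.28-fold in pXEN (edgeR adjusted p = 0.00647) and 3.84-fold in XEN (edgeR adjusted p = 0.00358). Without ES3 these folds were 5.05 and 5.88, and without ES2 the pXEN call was lost (edgeR adjusted p = 0.0647). Cd63, a tetraspanin of late endosomes, averaged 268 ± 50.2 CPM in pXEN, 256 ± 31.1 CPM in XEN and 85.9 ± 9.20 CPM in ES lines, and rose 3.12-fold in pXEN (edgeR adjusted p = 0.000434) and 2.98-fold in XEN (edgeR adjusted p = 0.000592).

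The other two membrane genes did not pass in the fit of all 8 lines. Scarb2, which delivers glucocerebrosidase to the lysosome, averaged 26.6 ± 8.44 CPM in pXEN, 31.2 ± 26.9 CPM in XEN and 10.5 ± 2.66 CPM in ES lines. XEN lines spread from 9.18 CPM in XEN2 to 61.2 CPM in XEN1. Its edgeR adjusted p was 0.175 in pXEN and 0.117 in XEN against ES. In pXEN it passed in the fit of pXEN and ES lines alone (edgeR adjusted p = 0.0225), without XEN1 and without XEN2. In XEN it passed without XEN2 (edgeR adjusted p = 0.0119) and by DESeq2 (adjusted p = 0.0488). Mcoln1, the calcium channel mucolipin, averaged 38.1 ± 12.9 CPM in pXEN, 39.3 ± 6.46 CPM in XEN and 28.0 ± 2.34 CPM in ES lines (edgeR adjusted p = 0.295 in pXEN and 0.243 in XEN).

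Among the proton pump genes, 2 of 5 rose in pXEN and 1 in XEN against ES, none fell, and the median log2 fold changes were 0.65 in pXEN and 0.54 in XEN. The share that rose was 40% in pXEN, beside 18.2% of all tested genes. In XEN it was 20%, beside 20.7% and so near the background. Atp6ap1, an X-linked accessory subunit, was the pump gene that passed in both. It had 204, 323 and 244 CPM in pXEN2, pXEN4 and pXEN6, 320.3, 196 and 202 CPM in XEN1, XEN2 and XEN5, and 51.0 and 85.4 CPM in ES2 and ES3. All endoderm lines were above both ES lines, by 3.77-fold in pXEN (edgeR adjusted p = 0.00121) and 3.50-fold in XEN (edgeR adjusted p = 0.00175). Atp6v1h, a regulatory subunit of the cytosolic sector, averaged 136 ± 20.7 CPM in pXEN, 106 ± 12.4 CPM in XEN and 72.5 ± 14.3 CPM in ES lines. It rose 1.88-fold in pXEN (edgeR adjusted p = 0.0124), a call lost without ES3 (edgeR adjusted p = 0.119), and missed the threshold in XEN (1.46-fold, edgeR adjusted p = 0.0953). Atp6v1a, the catalytic subunit, averaged 293 ± 44.5 CPM in pXEN, 275 ± 118 CPM in XEN and 196 ± 2.91 CPM in ES lines. Its edgeR adjusted p was 0.178 in pXEN and 0.245 in XEN. Atp6v0d1, a subunit of the membrane sector, averaged 66.9 ± 12.2 CPM in pXEN, 72.5 ± 21.6 CPM in XEN and 42.5 ± 17.6 CPM in ES lines (edgeR adjusted p = 0.148 in pXEN and 0.0883 in XEN). Atp6ap2, the X-linked accessory protein also known as the prorenin receptor, averaged 80.2 ± 22.3 CPM in pXEN, 70.2 ± 5.47 CPM in XEN and 55.6 ± 23.9 CPM in ES lines, with an edgeR adjusted p of 0.208 in pXEN and 0.415 in XEN.

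Neither the regulator nor the sorting receptor passed in the fit of all 8 lines. Tfeb, the transcription factor whose family binds the E-box printed above, had 9.21, 19.4 and 10.0 CPM in pXEN2, pXEN4 and pXEN6, 19.9, 18.1 and 10.0 CPM in XEN1, XEN2 and XEN5, and 25.5 and 24.6 CPM in ES2 and ES3. All 6 endoderm lines lay below both ES lines, by a log2 change of -0.95 ± 0.40 in pXEN (edgeR adjusted p = 0.0846) and -0.65 ± 0.40 in XEN (edgeR adjusted p = 0.217). TFEB activity is regulated largely by its location in the cell, which RNA levels do not measure. M6pr, the cation-dependent mannose 6-phosphate receptor, had 211, 137 and 214 CPM in pXEN2, pXEN4 and pXEN6, 108, 203 and 148 CPM in XEN1, XEN2 and XEN5, and 95.0 and 121 CPM in ES2 and ES3. Its pXEN lines were above both ES lines and its XEN lines overlapped them, with an edgeR adjusted p of 0.066 in pXEN and 0.217 in XEN. M6pr passed in pXEN in 5 of the 16 alternative fits.

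The comparison with ES was also made for 94 further genes of the lysosome, of which 82 passed the filter. In pXEN, 33 rose and 8 fell, with a median log2 fold change of 0.90, and in XEN, 34 rose and 5 fell, with a median of 0.84. That is 35.1% rising and 8.51% falling in pXEN, beside 18.2% and 17.8% of all tested genes. In XEN it is 36.2% and 5.32%, beside 20.7% and 17.8%. Setting genes with 0 counts in a group to their bounds left both medians the same. Glycosidases and sulfatases had 9 of 16 rising in each. Among them Sgsh, which removes sulfate groups in the pathway of Naglu, was 14.2-fold higher in pXEN and 12.6-fold higher in XEN than ES. Of 10 lipid hydrolases and activators, 6 rose in pXEN and 5 in XEN, and of 18 further pump genes 7 rose and 1 fell in pXEN, and 6 rose and 1 fell in XEN. Atp6v0e2 was the one that fell, by 3.39 in pXEN and 2.85 in XEN on the log2 scale. It passed the filter only through the ES lines, so its calls are no support for a difference. Atp6v0c was listed at 0 in every mouse line and at 137 to 199 CPM in the rat lines, and the cause of the mouse zeros was not tested. Of 6 sorting genes, 3 rose in each, and Sort1, the sortilin receptor, was 5.54-fold lower in pXEN than ES. Of 20 membrane genes, 5 rose in each (Ctns, Laptm4a, Slc11a2, Litaf and Tpcn1), and 5 fell in pXEN and 3 in XEN. These shares, 25% rising in each, and 25% falling in pXEN and 15% in XEN, were not far from those of all tested genes. Laptm5, a gene of blood cells in adult tissue, had 13.2 and 23.4 CPM in ES2 and ES3 and 0 counts in all pXEN and XEN lines, at least 61.1-fold lower in pXEN and 60.6-fold lower in XEN against 3 counts over the group. Abca2, a transporter, was 13.6-fold lower in pXEN and 4.72-fold lower in XEN than ES, and Cln3, the Batten disease protein, was 2.89-fold lower in XEN. Of 8 further proteases, none rose in pXEN and 1, Cpq, rose in XEN (12.5%, beside 20.7% of all tested genes).

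Among 16 further regulators of the lysosome, 3 rose and 1 fell in pXEN and 5 rose and 1 fell in XEN. The share that rose in pXEN, 18.8%, was near the 18.2% of all tested genes, and in XEN it was 31.2% beside 20.7%. Tfec, a member of the same transcription factor family as Tfeb, had 42.4, 19.4 and 16.6 CPM in pXEN2, pXEN4 and pXEN6, 12.9, 58.9 and 84.5 CPM in XEN1, XEN2 and XEN5, and 0 counts in both ES lines. It was present in every endoderm line. Against 3 counts over the ES lines it stood at least 43.6-fold higher in pXEN, and in XEN it was at least 86.8-fold higher. Tfe3, another member, rose by log2 0.80 in XEN over ES (edgeR adjusted p = 0.025). Flcn and Rragc, which act in nutrient sensing at the lysosome surface, rose by log2 1.35 and 1.21 in pXEN and 1.14 and 1.26 in XEN. Rragd, another Rag GTPase, was 35.1-fold lower in pXEN and 9.76-fold lower in XEN than ES. Of 3 cystatin genes, which inhibit cysteine cathepsins, Cst3 and Cstb rose in both (log2 1.28 and 0.98 in pXEN, 1.35 and 0.85 in XEN). Between pXEN and XEN, none of the 94 rose and 3 fell, which is 3.19% of them beside 3.63% of all tested genes and so near the background. The 3 were Laptm4b (3.50-fold), Atp6v0a1 (1.97-fold) and Cpq, which had 0 to 0.285 CPM in pXEN and 3.12 to 5.56 CPM in XEN lines. Cpq passed the filter on low values only through the XEN lines, where it is high, so its call is no support for a difference. The same holds for Tfec and Sgsh through the endoderm lines and for Laptm5, Rragd and Atp6v0e2 through the ES lines. Sgsh averaged 2.00 CPM in ES lines, and Rragd 0.572 CPM in pXEN and 2.37 CPM in XEN lines, below the minimum of 3.14 CPM. Abca2 averaged 1.12 CPM in pXEN lines, also below it, and 3.28 CPM in XEN lines. For Abca2 and the other genes of the 94, the lines through which they passed the filter were not checked. Atp6v0a1, a membrane subunit of the pump, had 55.9, 65.5 and 49.6 CPM in pXEN2, pXEN4 and pXEN6 against 111, 113 and 114 CPM in XEN1, XEN2 and XEN5, with 16.0 and 14.8 CPM in ES2 and ES3. The edgeR adjusted p was 0.0184 for Laptm4b and 0.0145 for Atp6v0a1. Of the fibroblast markers, 13 of 17 were also lower in pXEN than XEN, and their part in these 3 differences was not tested. Among the markers, Col1a2, Col3a1, Dcn, Lum and Prrx1 passed the filter only through the XEN lines, so those calls are no support for a difference.

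Lines of one group differed from each other as a matter of course. The highest line stood a median of 1.61 times above the lowest over the 36 genes in pXEN, 1.82 times in XEN and 1.39 times in ES, where there were 2 lines and not 3. In pXEN, 25 of the 36 were highest in pXEN4, a line that was highest for 34.9% of all tested genes. In XEN, 22 were highest in XEN1 and 23 lowest in XEN2, shares that over all genes were 36.5% and 34.1%. The widest spreads in pXEN were those of Ctsh, with 0 counts in pXEN6, of Hexa, 18.4 times higher in pXEN4 than pXEN6, and of Ctsc, 11.2 times higher in pXEN4 than pXEN6. In XEN the widest was Ctsc, 116 times higher in XEN2 than XEN1, where XEN1 held 1 count of it.

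**Figure D3:**
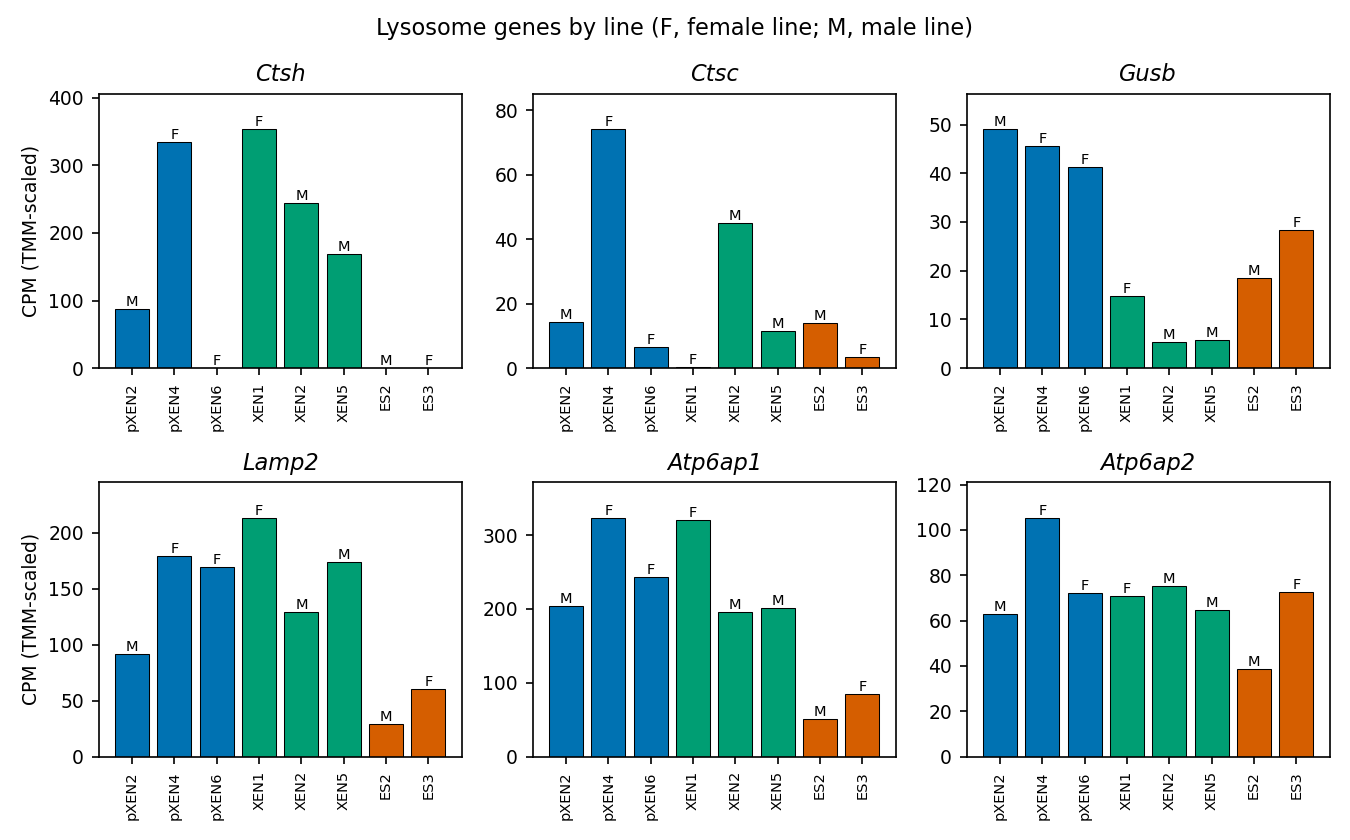
Level in each of the 8 mouse lines (bars, CPM on a linear axis from 0; blue pXEN, green XEN, orange ES; F and M mark the labelled sex) of 6 lysosome genes. Ctsh has 0 CPM in pXEN6 and 334 CPM in pXEN4, Ctsc ranges from 0.390 to 74.0 CPM without following the groups, and Gusb is lowest in the green bars. In the lower row, the X-linked Lamp2, Atp6ap1 and Atp6ap2 are higher in female ES3 than in male ES2.

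4 of the 37 genes are X-linked: Gla, Lamp2, Atp6ap1 and Atp6ap2. Female ES3 was above male ES2 by 1.07 times for Gla, 2.06 times for Lamp2, 1.67 times for Atp6ap1 and 1.88 times for Atp6ap2. With 1 line of each sex these ratios have no replicate. In pXEN, both female lines were above the male line for all 4, for example at 179 and 169 CPM of Lamp2 against 91.1 CPM. In XEN, the female line was above both male lines for Lamp2 (213 CPM against 129 and 174 CPM) and Atp6ap1 (320.3 CPM against 196 and 202 CPM) and not for Gla or Atp6ap2. The male line pXEN2 was the lowest pXEN line for 16 of the 36 tested lysosome genes, and for 33.9% of all tested genes. The female line XEN1 was the highest XEN line for 22 of the 36, and for 36.5% of all. The part of sex in the levels of these 4 genes was not tested. With sex as a term in the fit, 21 genes rose and 1 fell in pXEN, and 19 rose and 2 fell in XEN against ES.

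The rat XENP lines, cultured like the mouse pXEN lines, had counts of 35 of the 36 genes found in their tables. The cathepsins Ctsl and Ctsz and the membrane protein Lamp1 held the most counts, which are not corrected for gene length. Ctsl had 2726, 3008, 2553 and 1158 CPM in CX1, MAX2, MAX3 and MAX8. Ctsz had 1665, 1616, 1365 and 959 CPM in the same lines, and Lamp1 had 1552, 1836, 2155 and 1254 CPM. MAX8 was the lowest line for all 3. Rat levels are CPM of all gene counts, and no gene lengths were used. They cannot be set beside mouse CPM, because Rn45s held 0.00821% to 0.0312% of the rat counts.

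Species were therefore compared by rank, as the percentile of each gene among 14387 symbols found in both species, by CPM not corrected for gene length and with no test. Species, genome, annotation and the share of multimapping reads (65.5% to 70.1% in rat, 7.84% to 9.65% in mouse) changed together and cannot be told apart. The median percentile of the 36 genes was 85.0 in rat XENP and 89.3 in mouse pXEN lines. Of the 36, 5 ranked higher in all 4 rat lines than in all 3 pXEN lines, where 19.7% of all shared symbols did, and 14 ranked lower, where 20.7% did. Among the 8403 symbols with at least 10 counts summed in each species, 28.1% ranked higher and 28.1% lower. There, 5 of 35 lysosome genes ranked higher and 14 lower. The number that ranked higher was 8 without pXEN4 and 9 without MAX8. Ctsz had the clearest higher rank among proteases, at a mean percentile of 99.5 in rat XENP and 68.2 in mouse pXEN lines. Hexa was at 88.5 in rat XENP and 48.3 in mouse pXEN lines. Glb1 was at 85.0 in rat XENP and 68.0 in mouse pXEN, Idua at 64.2 in rat and 49.4 in mouse, and Man2b1 at 90.8 in rat and 86.3 in mouse. M6pr showed the opposite order, at 49.5 in rat XENP and 96.4 in mouse pXEN lines, as did Gusb at 51.7 in rat and 82.3 in mouse, and Lgmn at 79.4 in rat and 99.0 in mouse. The remaining genes with lower rat ranks were Ctsb, Ctsd, Tpp1, Gaa, Neu1, Psap, Asah1, Lipa, Atp6v1h, Atp6v1a and Atp6v0d1.

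Within the rat group, most genes varied by less than 3 times between lines. The wider ones were Ctsh at 32.2, 11.1, 7.64 and 43.7 CPM in CX1, MAX2, MAX3 and MAX8, Gaa at 28.2, 116, 106 and 102 CPM, Gusb at 4.83, 18.5, 6.68 and 16.1 CPM, and Scarb2 at 64.4, 107, 93.6 and 30.4 CPM. Ctsh was higher in both WKY lines than in both F344 lines, and Gaa and Gusb were lowest in CX1. Ctsc, which spread over the mouse lines, had 226, 214, 177 and 107 CPM in CX1, MAX2, MAX3 and MAX8. Hexa had 192, 177, 119 and 81.2 CPM.

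**Figure D4:**
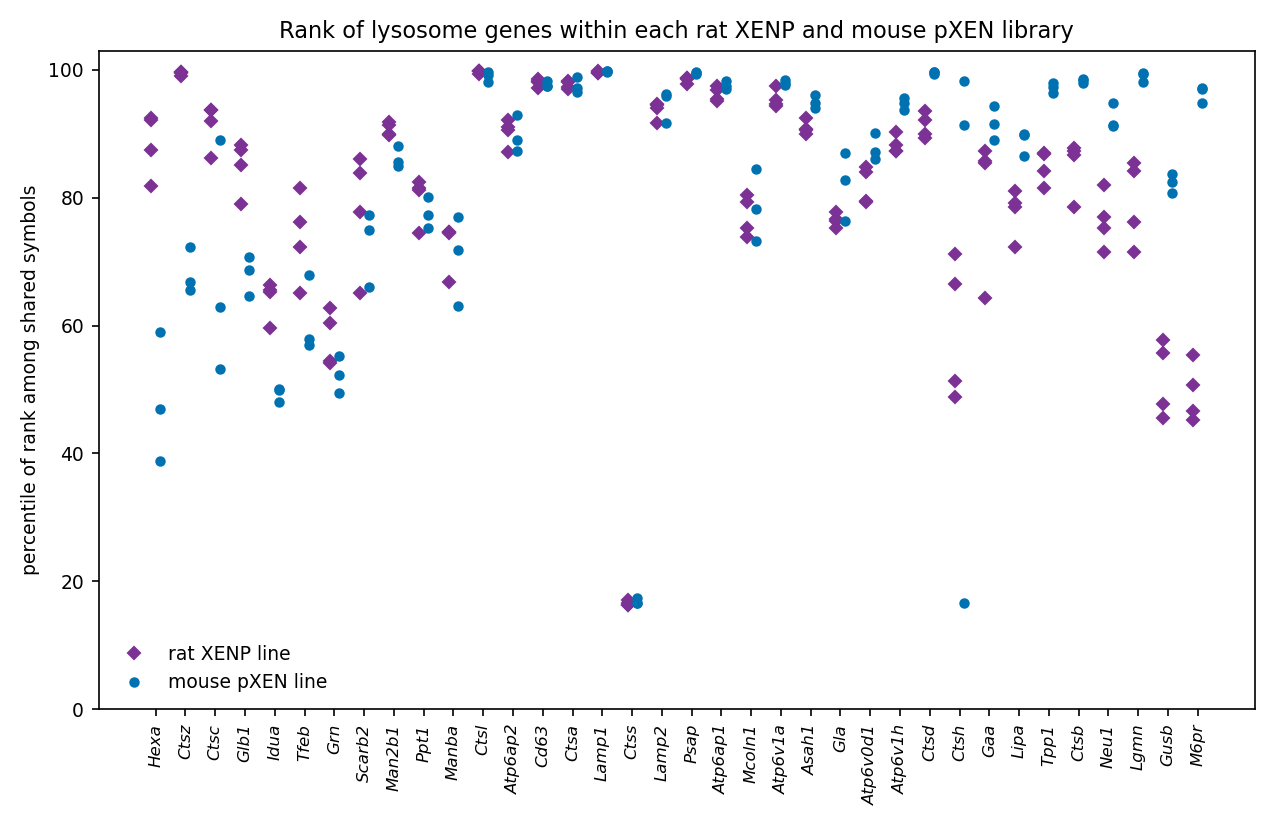
Percentile of rank among 14387 shared symbols (y axis, 100 is the highest level) of 36 lysosome genes in each rat XENP line (4 purple diamonds) and each mouse pXEN line (3 blue circles), ordered by the difference of the group means. At the left, all Hexa and Ctsz diamonds lie above the circles, and at the right, all M6pr, Gusb and Lgmn diamonds lie below them. Lamp1, Ctsl and Cd63 stand near the top in both species, and Ctss, with 0 counts, stands at the same low percentile in both.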

How the data were processed

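RNA-seq gene counts of 12 cell lines (8 mouse, 4 rat) were used. For each line the authors deposited a table of whole-number gene counts, unstranded and by strand, per the file headers. Per the submitters' processing notes, the tools were CASAVA 1.8.2, Trimmomatic 0.33, STAR 2.5.1 and DESeq2, with builds mm10 and rn6, and which annotation was counted is not stated there. The reverse-strand counts were used, since they held 98.9% to 99.3% of stranded mouse counts. Read classes without a gene (73.4% to 78.3% of mouse and 89.7% to 91.8% of rat reads) were left out, and multimapping reads were not assigned to genes, so genes with near-identical copies may have lost reads. The tables of the pXEN lines carry the name XENP, and groups were taken from titles and cell types.

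One edgeR 4.0.16 fit (R 4.3.3) held all 8 mouse lines, after TMM scaling and filterByExpr with a minimum count of 10. It used glmQLFit (robust) with glmQLFTest, and Benjamini-Hochberg adjustment over 10895 genes with a threshold of 0.05. The procedure was tested on simulated data. Standard errors were derived from the fold change and its F statistic. Replicates are lines, so p-values measure the spread between lines. A fold against a group at 0 is a bound computed from 3 counts over that group. Levels per kilobase used the exon union of GENCODE vM21 (GRCm38). Rat levels are CPM without TMM scaling. DESeq2 1.42.0, RLE and upper-quartile scaling, no filter, unstranded counts, counts without Rn45s, fits of the compared groups alone, sex as a term and leaving out each line were tried. Promoters were RefSeq windows of GRCm38.p6, searched for exact matches.

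The members, gene lists, classes and tests were chosen with earlier results of these data known. All members are named. Values per line are given for the 12 called members with the largest fold changes and for others chosen after their values were seen, and further lysosome genes are named as up to 4 highest and 4 lowest called folds with at least 10 CPM, or where a list had 5 or fewer calls. Some genes that this rule names are left out here.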

Additional observations from a re-analysis of the deposited data

Results flagged for a closer look

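In the rat XENP lines, 1 line stood apart from the other 3 for 4 of the 35 genes screened, by a gap that exceeded Dixon's critical value for its share of the group's range. Chance alone gives such a gap in about 1 in 20 groups. Gaa had 28.2 CPM in CX1 and 102 to 116 CPM in the other lines. Idua had 20.1 CPM in CX1 and 30.5 to 32.5 CPM in the others. Manba had 33.0 CPM in CX1 and 52.5 to 53.6 CPM in the others. Asah1 had 183 CPM in MAX2 and 150.4 to 156 CPM in the others.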

How the results depend on the processing

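No paired analysis was possible because the replicate numbers are names of lines and the groups compared share fewer than 2 of them. The numbers of lysosome genes called stayed within 1.5 times the reported ones under RLE and upper-quartile scaling, no filter, unstranded counts, removal of Rn45s, fits of the compared groups alone, sex as a term and DESeq2, and the rat ranks likewise under log2 CPM without Rn45s, unstranded counts and a minimum of 10 counts. With 1 line left out, 15 to 24 genes rose and 1 to 3 fell in pXEN against ES, 3 of them without pXEN4 (Manba, Hexa and Tfeb). In XEN against ES, 13 to 21 rose and 1 to 2 fell, 1 of them without XEN5 and without ES3. In pXEN against XEN, 1 rose and 0 fell in each such fit. Between 5 and 9 genes ranked higher in rat XENP than mouse pXEN, and 14 to 16 ranked lower. The cause of these shifts was not tested. Upper-quartile scaling moved the median log2 fold change of all genes to -0.13 in pXEN and -0.11 in XEN against ES.

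Some single genes that had not passed the test changed sign with a line left out. The log2 fold change ranged from -0.45 to 0.28 for Grn and from -0.17 to 0.80 for Glb1 in pXEN against ES. In XEN against ES it ranged from -0.25 to 0.59 for Grn, -1.12 to 0.22 for Idua, -0.44 to 2.46 for Ctsc and -0.039 to 0.86 for Atp6ap2. In pXEN against XEN, 35 genes were called under no setting (lowest edgeR adjusted p = 0.0762, for Psap), and 20 of them changed sign in at least 1. Against ES, Gusb in pXEN and Atp6v0d1 in XEN passed in 2 alternative fits each and Man2b1 in XEN in 1, though not in the reported fit. With 2 ES lines, calls of genes that differ by small factors are limited, and a p above the threshold does not show equal levels.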
